A study of Mus musculus with 18 samples.

Results

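The 10 genes described here are a chosen list of mouse Bcl2 family members, a family tied to how long a neutrophil lives: Mcl1, Bcl2, Bcl2l1, Bcl2l11, Bcl2a1b, Bcl2a1d, Bax, Bak1, Bid and Bbc3. They were taken by symbol from the 32328 genes measured, and all 10 were found. Levels were followed over 18 libraries of neutrophils from untreated adult C57BL/6 mice, 8 to 12 weeks old. Each of 6 sites gave 3 libraries: Skin (the ear), Intestine (the colon), Lung, Spleen, Blood and bone marrow (BM). The cells were Ly6G+ neutrophils, sorted live with antibodies to CD45 and CD11b as well, at purities that were typically over 95%. The labels do not say whether the 3 libraries of a tissue came from separate animals, or whether animals were pooled, so a p-value here reflects only how these libraries spread, which may be technical. All values are scaled counts, that is, estimated reads of a gene per 1000000 of an effective library, not divided by gene length.

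Neutrophils are short-lived cells that die by apoptosis, and the Bcl2 family sets the threshold at the mitochondrion. Pro-survival members (Mcl1, Bcl2, Bcl2l1, which encodes BCL-XL, and the Bcl2a1 genes, which encode A1) hold the effectors Bax and Bak1 in check, and BH3-only members (Bcl2l11, which encodes BIM, Bid, and Bbc3, which encodes PUMA) oppose them. Once active, Bax and Bak1 open the outer mitochondrial membrane and release cytochrome c. MCL1 is known for its very short half-life as a protein and for its need in neutrophils, and A1 transcripts are known to rise with inflammatory signals.

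Estimated counts totalled 2935582 in Lung replicate 1 and up to 12087938 in Spleen replicate 2. Libraries of the same tissue differed by a root mean square of 0.841 to 1.65 log2 units in 5 tissues and by 2.21 to 2.83 in Skin, where replicate 2 had only 9190 genes above 0. The summed level of 12 neutrophil markers was 51717 to 68344 in BM, 32382 to 34197 in Blood, 11906 to 16278 in Spleen, 5799.9 to 17827 in Lung, 1216 to 18223 in Skin and 954 to 1452 in Intestine. None of the 12 was at 0 throughout a tissue, and 9 of them had their lowest mean in Intestine. Markers of other cells moved too. The sum of 7 fibroblast and muscle markers was 5521 to 11266 in Intestine, 1119 to 4144 in Skin and 47.6 to 66.2 in Blood. In these bulk libraries, fewer cells of a type and less RNA per cell cannot be told apart.

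By limma's moderated F test, adjusted over 16157 genes, 3 of the 9 members that passed the filter on low values differed between the tissues (Mcl1, Bcl2a1d and Bid), beside 31.9% of all genes tested. The tenth, Bax, was below that filter. The members' share was thus close to that of all genes, and what follows is about single members. Without the Skin libraries 6 of 9 passed, beside 40.6% of genes, adding Bcl2, Bcl2l11 and Bcl2a1b. Without the Intestine libraries 2 of 9 passed (Bcl2a1d and Bid), beside 17.7% of genes.

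**Figure D1:**
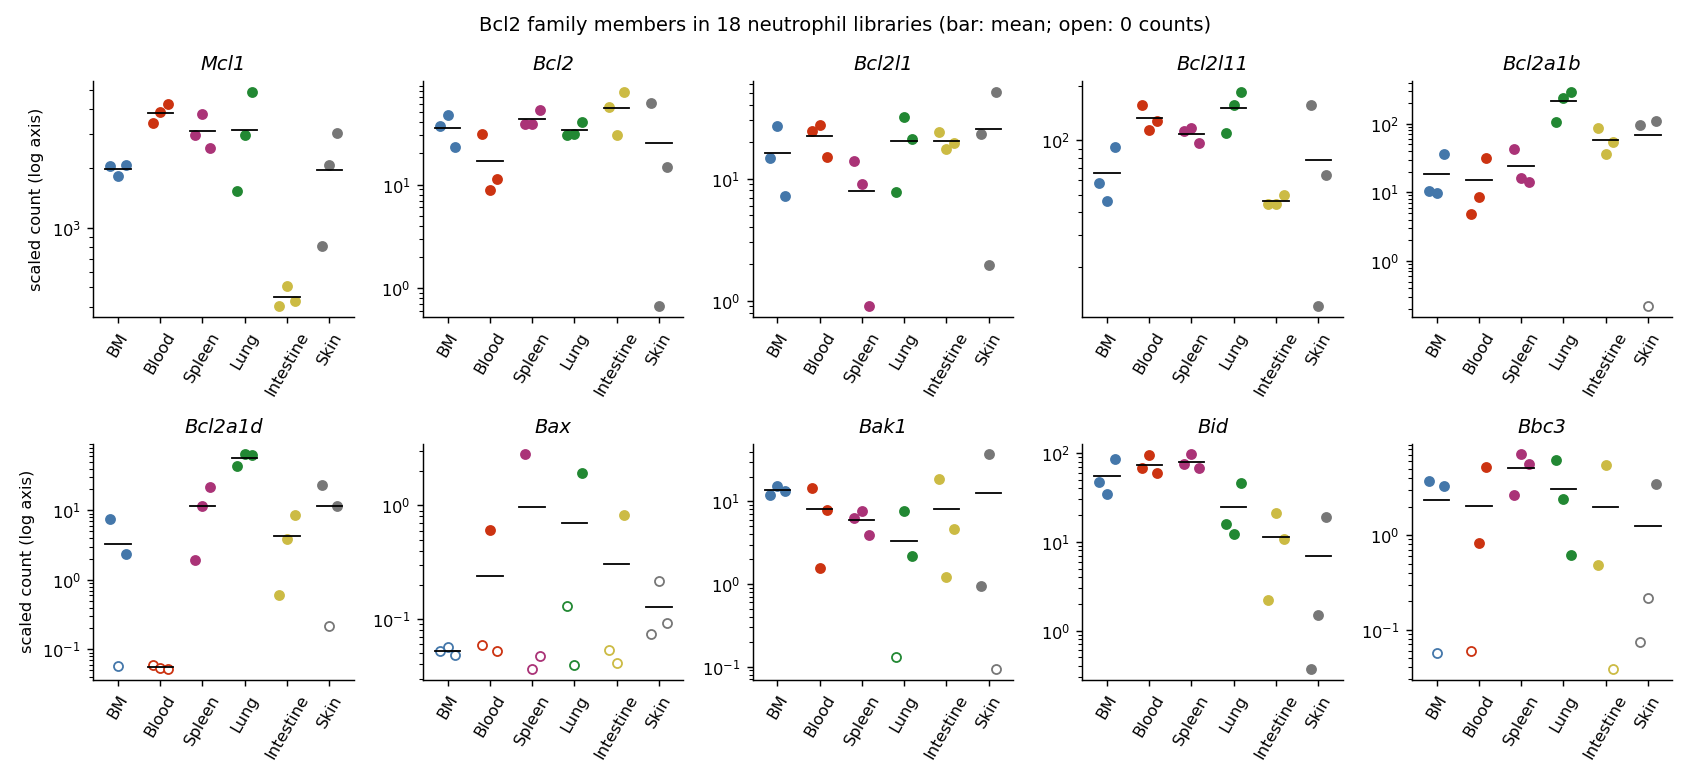
Scaled counts of the 10 members on log axes, by tissue. Each point is a library, open points are libraries with 0 counts, and bars are means of the 3 libraries. Mcl1 lies between 401 and 509 in Intestine and at 808 or above elsewhere, and Bcl2a1d lies between 43.0 and 63.7 in Lung and at 0 counts in Blood.

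Mcl1 (ENSMUSG00000038612, GRCm38 chr3:95658788-95663176, plus strand) was the member with the highest level. Per kilobase of merged exons, its mean over the 18 libraries was 705 scaled counts, against 81.2 for Bcl2a1b, 16.9 for Bcl2a1d, 12.1 for Bcl2l11, 11.8 for Bid, 4.10 for Bcl2l1, 3.82 for Bcl2, 3.58 for Bak1, 1.24 for Bbc3 and 0.252 for Bax. Mcl1 was thus the most abundant pro-survival transcript by this measure.

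In Blood, Mcl1 measured 3397, 3873 and 4229.5 scaled counts in replicates 1 to 3. In Intestine it measured 401, 509 and 429. The groups were far apart, and every Intestine library was below each of the other 15. The mean fell from 3833 ± 418 (SD, n = 3, as for all means given here) in Blood to 447 ± 56.2 in Intestine, a log2 difference of -3.10 ± 0.41 (SE; adjusted p = 1.87e-05, limma).

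Elsewhere Mcl1 was 2053, 1826 and 2087 in BM. Spleen libraries held 2962, 3787 and 2544, and Lung libraries 1542, 2966 and 4883. Skin libraries held 808, 2083 and 3022. Lung and Skin thus spread widely, with Lung replicate 1 below all Blood libraries and Lung replicate 3 above them. In the order of means (Blood, Lung, Spleen, BM, Skin, Intestine), Spleen lay wholly above BM and Skin wholly above Intestine, and all other neighbours overlapped.

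The F test of Mcl1 gave an adjusted p of 7.51e-05 (limma), and 0.255 without the Intestine libraries. Intestine against the mean of the other tissues gave -2.53 ± 0.32 (adjusted p = 6.86e-06). Blood against the others gave 1.19 ± 0.32 (adjusted p = 0.0329). This call ended without the Intestine libraries (0.71, adjusted p = 0.391), without any one Blood library (adjusted p 0.130 to 0.171), without the filter (0.0899) and with median-of-ratios scaling (0.100). Against Blood, Skin (-1.15 ± 0.41, adjusted p = 0.0592), BM (-0.94 ± 0.41, adjusted p = 0.660), Lung (-0.44) and Spleen (-0.32) did not pass. The 95% interval of the Lung difference ran from -1.29 to 0.41.

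The low Mcl1 in Intestine stood beside a lower level of neutrophil transcripts in general. Csf3r, the G-CSF receptor gene and one of the 12 neutrophil markers, was 3851 ± 227 in Blood and 185 ± 30.8 in Intestine, a difference of -4.38 ± 0.63 (adjusted p = 3.85e-05, limma). The ratio of Mcl1 to Csf3r within a library was 0.861 to 1.08 in Blood, 0.768 to 0.984 in BM and 0.779 to 0.946 in Spleen. It was 1.51 to 1.59 in Lung and 2.28 to 2.69 in Intestine. In Skin it was 4.17, 0.739 and 1.63. Relative to Csf3r, Mcl1 was therefore higher in Intestine and Lung than in every BM, Blood and Spleen library, although its own level was lowest in Intestine. What part the other cells' transcripts had in the Mcl1 level was not tested.

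**Figure D2:**
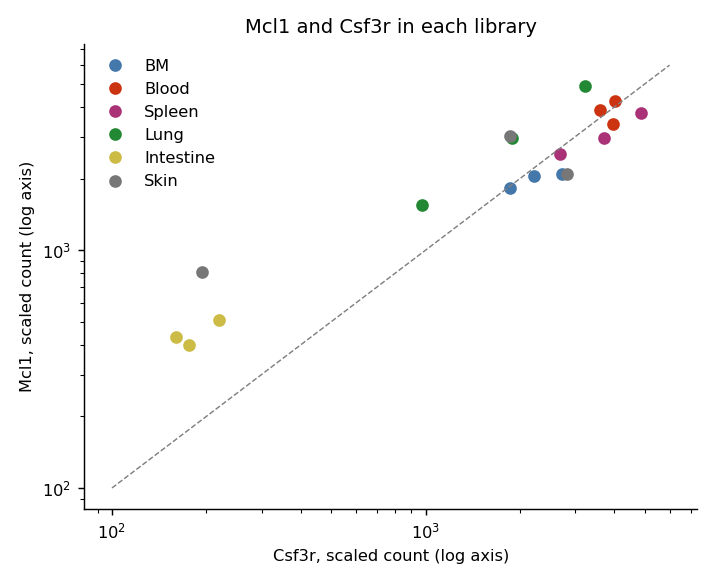
Scaled counts of Mcl1 against Csf3r on log axes, one point per library, coloured by tissue, with a dashed line where both are equal. Intestine libraries and Skin replicate 1 lie at the lower left, well above the line, and the ratio in the Intestine libraries is 2.28 to 2.69.

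The Bcl2a1 genes are related copies on chromosome 9, named for A1, a small pro-survival protein. They are Bcl2a1b (ENSMUSG00000089929, GRCm38 chr9:89199209-89207827, plus strand), Bcl2a1d (ENSMUSG00000099974, chr9:88723285-88731914, minus strand), Bcl2a1a (chr9:88956900-88962419, plus strand) and Bcl2a1c (chr9:114330135-114330578, plus strand). Since reads were 61 nt long, the first 61 coding bases of each are shown. Each line starts at the start codon, runs 5′ to 3′, and has in capitals the bases that differ from Bcl2a1b. The stretches are at chr9:89199360-89199420 (b), chr9:88731659-88731719 (d), chr9:88957051-88957111 (a) and chr9:114330156-114330216 (c), each on its gene's strand.
Bcl2a1b: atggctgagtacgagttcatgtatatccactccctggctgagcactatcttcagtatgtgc
Bcl2a1d: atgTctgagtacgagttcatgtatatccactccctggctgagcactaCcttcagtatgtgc
Bcl2a1a: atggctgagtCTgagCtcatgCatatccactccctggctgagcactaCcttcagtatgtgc
Bcl2a1c: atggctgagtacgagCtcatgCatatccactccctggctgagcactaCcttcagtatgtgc
Within this stretch Bcl2a1d differed from Bcl2a1b at 2 bases, Bcl2a1c at 3 and Bcl2a1a at 5. Over whole transcripts, 74.5% of the 61-base words of Bcl2a1b, 73.7% of those of Bcl2a1d and 62.7% of those of Bcl2a1a also occurred in another copy or in Gm29094, a gene model overlapping Bcl2a1b on the same strand. Only 7.29% of those of Bcl2a1c did, so the likeness of its first 61 coding bases does not hold over its transcript of 444 nt. The split of reads between copies is thus uncertain, and the sum over copies is less so.

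Bcl2a1b was high in Lung, at 105, 237 and 294 scaled counts. Blood libraries held 4.84, 8.48 and 31.9. BM libraries held 10.4, 9.66 and 35.9. These ranges did not overlap Lung. Spleen libraries held 42.7, 16.2 and 14.01, and Intestine libraries 86.8, 35.9 and 53.9. Skin libraries held 95.9, 0 counts and 110.4. Lung and Skin overlapped, and the Skin library with 0 counts was replicate 2.

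On the fitted scale Bcl2a1b was higher in Lung than in Blood by 3.999 ± 1.18 (adjusted p = 0.0443, limma), beside 5.27% of all genes called higher in Lung. Its F test gave an adjusted p of 0.0781. The Lung call was lost in 18 of 28 alternative analyses, among them leaving out any single library of BM, Spleen, Lung or Intestine or Blood replicate 1 or 2 (adjusted p 0.0501 to 0.198). The direction was the same in all 28. Without the Skin libraries the same difference had a standard error of 0.64 (adjusted p = 0.000285), beside 10.5% of genes, and the F test gave 0.000236. Without Skin replicate 2 alone the F test gave 0.000245.

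Bcl2a1d was at 0 counts in all 3 Blood libraries. Lung held 43.0, 63.7 and 63.1 scaled counts, above every other library. Spleen held 1.93, 11.5 and 21.7, BM 7.59, 0 counts and 2.34, Intestine 0.602, 3.82 and 8.61, and Skin 23.1, 0 counts and 11.5. Lung was the one tissue wholly above its neighbour in the order of means, at 56.6 ± 11.7 against 11.7 ± 9.86 in Spleen.

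Against a floor of 3 counts per Blood library, Bcl2a1d as assigned was at least 146-fold higher in Lung. The floor covers counting error only. It does not cover reads of Bcl2a1d given to another copy, so the folds are limits for assigned counts alone. Blood libraries held 39.97, 77.4 and 306 estimated counts of Bcl2a1b, and whether some came from Bcl2a1d was not tested. Summed over all copies, the log2 difference of Lung from Blood was 4.19 ± 0.74 (limma). By the same floor, Bcl2a1d as assigned was at least 30.2-fold higher in Spleen, at least 29.9-fold in Skin, at least 11.2-fold in Intestine and at least 8.58-fold in BM. Some of these limits rest on 1 library. Without replicate 1 the BM limit was 3.09-fold, and without replicate 1 the Skin limit was 15.1-fold. Without replicate 3 the Spleen limit was 17.3-fold and the Intestine limit 5.69-fold. Without any one Lung library the Lung limit was 137-fold to 163-fold. The F test passed (adjusted p = 0.00649, limma), as did Lung against Blood (adjusted p = 0.00215), and both calls held in every alternative tried. Lung against the others was 3.85 ± 0.84 (adjusted p = 0.00931), and 3.30% of genes were called higher there. That call ended without Lung replicate 1 (adjusted p = 0.0598) or replicate 2 (0.0825). Blood against the others (adjusted p = 0.0394, beside 2.79% of genes called lower) was lost in 13 of 26 alternatives, which included leaving out any one Blood library (0.137 to 0.193), BM replicate 1 or 3, Spleen replicate 2 or 3, Lung replicate 1 or 2 or Intestine replicate 2 or 3 (0.0519 to 0.0589).

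Bcl2a1a and Bcl2a1c are not among the 10 members but can share reads with them, Bcl2a1c over little of its length. Bcl2a1a held 16.5, 34.2 and 34.1 scaled counts in Lung and at most 17.4 in the BM, Blood, Spleen and Intestine libraries, so that Lung replicate 1 overlapped them. Its F test (adjusted p = 0.226, limma) and Lung against Blood (0.359) did not pass. In Skin it held 0 counts, 683 and 0.557. The 683 belongs to Skin replicate 2, where both Bcl2a1b and Bcl2a1d were at 0 counts, and it rests on 1578 estimated counts. Bcl2a1c was at 0 counts in 17 of 18 libraries. Gm29094 was highest in Lung replicate 2, at 8.50 scaled counts.

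Summed over all copies, Bcl2a1 measured 165, 335 and 391 scaled counts in Lung and 119, 683 and 122 in Skin. Blood held 7.36, 10.6 and 35.9, and BM 19.6, 9.66 and 55.5. Spleen held 48.7, 39.4 and 38.0, and Intestine 87.4, 39.6 and 62.6. Each Lung and Skin library was above every library of the other 4 tissues, whichever copy the reads had been given to. Skin replicate 2, which stood apart in the single copies, was high in the sum.

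The sum differed between tissues (adjusted p = 0.000458, limma F test) and was higher in Lung than in Blood by 4.19 ± 0.74 (adjusted p = 0.00122). These 2 calls held in every alternative. Skin was higher than Blood by 3.82 ± 0.74 (adjusted p = 0.00161), by 2.99 without Skin replicate 2 (0.00307), and not past the threshold when only the 6 libraries compared were fitted (0.0624). Intestine was higher by 1.999 ± 0.74 (adjusted p = 0.0497), a call lost in 16 of 27 alternatives, with adjusted p up to 0.199. The libraries whose removal ended it were BM replicate 1, Blood replicates 1 and 2, and each Spleen, Lung and Intestine library. The pair of members alone, Bcl2a1b plus Bcl2a1d, was 148, 301 and 357 in Lung, and higher there than in Blood by 4.37 ± 1.17 (adjusted p = 0.0257). That call ended without Blood replicate 1 (0.136) or 2 (0.0972), without any one Lung library (0.0635 to 0.0968), with no filter (0.0864) and with BM as the reference (0.0695). The F test of the pair did not pass (adjusted p = 0.0581).

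Other cells' transcripts also differed between the Lung and Blood libraries. The sum of 7 endothelial markers was 642 to 2401 in Lung and 32.6 to 49.1 in Blood, with Clec14a at 0 in Blood. The sum of 8 epithelial and keratinocyte markers was 343 to 2479 in Lung, 1.52 to 54.4 in Blood and 872 to 10290.3 in Skin. The sum of 9 macrophage and dendritic cell markers overlapped, at 413 to 599 in Lung and 448 to 652 in Blood, and was 983 to 3583 in Skin. Of these 9, 5 had their lowest mean in Blood and 0 in Lung. The sum of 7 B cell markers was 217 to 842 in Lung and 38.8 to 105 in Blood. That of 9 T and NK cell markers was 59.3 to 169 and 28.0 to 58.6. The fibroblast and muscle sum was 196 to 1227 and 47.6 to 66.2. The sum of 8 eosinophil and mast cell markers overlapped, at 267 to 824 and 706 to 937. The sum of 6 erythroid markers was lower in Lung, at 168 to 646 against 2904 to 8882. The part of other cells in the Bcl2a1 levels was not tested.

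**Figure D3:**
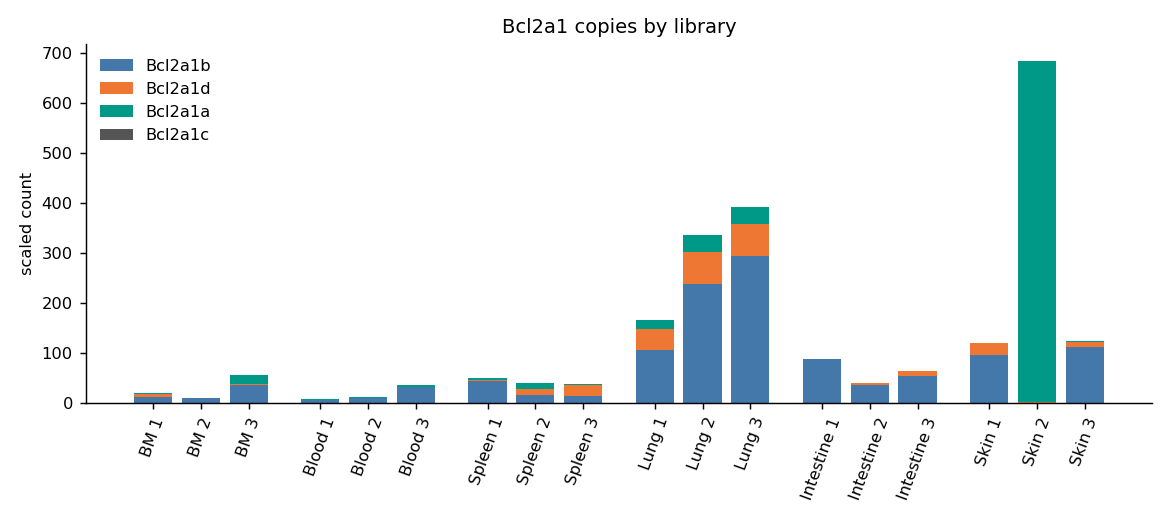
Scaled counts of the 4 Bcl2a1 copies stacked for each library, from 0. The Lung bars reach 165, 335 and 391, and the Skin replicate 2 bar of 683 is assigned to Bcl2a1a.

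A stretch upstream of the GENCODE start of the 3 expressed copies is nearly the same. It ends 45 bases from that start in Bcl2a1b and Bcl2a1a and 1 base from it in Bcl2a1d. The stretch is shown because Bcl2a1b and Bcl2a1d were both higher in Lung than in Blood. Bcl2a1a stands beside them because it shares reads with them. The stretches (RefSeq, GRCm38.p6) are chr9:89199023-89199164 on the plus strand for Bcl2a1b, chr9:88731915-88732050 on the minus strand for Bcl2a1d and chr9:88956714-88956855 on the plus strand for Bcl2a1a. Capitals mark 2 motifs, TGANTCA, a loose outline of the AP-1 site, and GAGGAAGT, an ETS-type site of the kind bound by PU.1. The middle base of TGANTCA was left open in the search. It is G or C in the usual AP-1 site and A in these 3 copies.
Bcl2a1b: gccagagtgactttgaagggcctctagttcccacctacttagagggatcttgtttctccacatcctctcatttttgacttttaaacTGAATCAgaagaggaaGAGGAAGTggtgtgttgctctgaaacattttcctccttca
Bcl2a1d: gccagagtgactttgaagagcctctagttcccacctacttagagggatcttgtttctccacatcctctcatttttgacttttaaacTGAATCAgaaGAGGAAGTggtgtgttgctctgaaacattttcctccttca
Bcl2a1a: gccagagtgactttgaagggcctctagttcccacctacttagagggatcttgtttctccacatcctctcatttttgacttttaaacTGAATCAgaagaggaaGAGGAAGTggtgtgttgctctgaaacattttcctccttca
TGANTCA (both strands searched, as for all motifs) occurred in 6.75% of the 32851 promoter windows of 250 bases in the RefSeq table, and among the 10 members in those of Bcl2a1b and Bcl2a1d alone. GAGGAAGT occurred in 2.44% of windows, and among the members in those of Bcl2a1b, Bcl2a1d and Bak1. GGGNNNNNCC, the outline of an NF-kB site, occurred in 45.8% of windows and in 11 of the 15 windows of the 10 members. These belong to 8 members, Bcl2a1b and Bcl2a1d not included, where a member counts if any of its windows matches. Of the 15 member windows, TGANTCA matched 2 and GAGGAAGT 3. TTCNNNGAA, the outline of a STAT site, occurred in 7.02% of windows and in none of the members. A match is a description of the letters only.

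Bcl2, the founding pro-survival member, was low in all tissues. Intestine libraries held 56.7, 30.3 and 78.7 scaled counts, and Blood libraries 30.9, 8.80 and 11.2. These ranges overlapped narrowly. BM held 36.9, 46.7 and 22.9, Spleen 38.0, 38.2 and 52.7, and Lung 30.2, 30.9 and 40.4. Skin ran from 0.664 in replicate 2 to 60.7 in replicate 1, a range that covered nearly all other libraries.

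The F test of Bcl2 did not pass (adjusted p = 0.253, limma). It passed without the Skin libraries (0.0450) and without Skin replicate 1 (0.0179). Intestine against Blood was 1.75 ± 0.90 (adjusted p = 0.161), with a 95% interval from -0.12 to 3.61. Without the Skin libraries the standard error was 0.48 and the adjusted p 0.00647, beside 22.5% of genes called higher in Intestine. Spleen was at 43.0 ± 8.40 against 16.95 ± 12.1 in Blood (adjusted p = 0.870). There the sum of 7 B cell markers was 1954 to 3811, against 38.8 to 105 in Blood, where Blk was at 0, and its part in the Bcl2 level was not tested.

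Bcl2l1 averaged 7.97 scaled counts in Spleen and 16.2 to 25.6 in the other tissues, and all neighbours in that order overlapped. Its F test did not pass with all libraries (adjusted p = 0.588, limma) or without Skin (0.212). The Spleen difference from Blood was -1.78 ± 0.96, with a 95% interval from -3.77 to 0.21.

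Bcl2l11 encodes BIM, a BH3-only protein that binds all pro-survival members, and per kilobase its mean level was close to that of Bid. Blood held 156, 114 and 128 scaled counts. Intestine held 44.7, 44.4 and 49.8, with little spread and below every Blood, Spleen and Lung library. In Lung it was 110.3, 157 and 186, in Spleen 112, 118 and 97.2, and in BM 58.1, 46.5 and 92.3. Skin held 158, 12.1 and 64.5, so that replicates 1 and 3 lay within the range of the other tissues and replicate 2 below it.

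The F test of Bcl2l11 did not pass (adjusted p = 0.129, limma). It passed without the Skin libraries (0.000717), without Skin replicate 1 (0.00899) and without Skin replicate 2 (0.00746). Intestine against Blood was -1.49 ± 0.64 (adjusted p = 0.0918), and without Skin -1.49 ± 0.31 (0.000774), beside 17.9% of genes called lower. The ratio of Mcl1 to Bcl2l11 within a library was 8.62 to 11.5 in Intestine, 13.98 to 26.3 in Lung, 26.2 to 32.2 in Spleen, 21.7 to 34.0 in Blood and 22.6 to 39.3 in BM. Intestine was thus lowest among these 5 tissues, with no overlap. In Skin the ratio was 5.13, 173 and 46.9.

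Bid (ENSMUSG00000004446, chr6:120891930-120916853, minus strand) encodes the BH3-only protein that caspase-8 cuts, which links death receptors to the mitochondrion. Blood held 67.0, 95.1 and 59.2 scaled counts, Spleen 75.7, 96.4 and 67.3, and BM 47.7, 34.5 and 85.0. Lung held 16.1, 12.2 and 45.5, Intestine 2.21, 21.1 and 10.6, and Skin 0.368, 1.51 and 18.9. All Intestine and Skin libraries were below every BM, Blood and Spleen library, and Lung overlapped both sets.

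The F test of Bid passed (adjusted p = 0.00198, limma) and held in all 26 alternatives. Bid was lower than in Blood in Intestine, with a log2 difference of -2.97 ± 0.87 (adjusted p = 0.0150), where 10.1% of genes were called lower. The Intestine call ended without Blood replicate 2 (0.0611) or Intestine replicate 1 (0.0942). In Skin the difference was -4.16 ± 0.87 (adjusted p = 0.00297), where 10.4% of genes were called lower. The Skin call ended when only the 6 libraries compared were fitted (0.0791). Skin against the others was -3.15 ± 0.67 (adjusted p = 0.00289), where 12.9% of genes were called lower, and 0.190 with a weight per library. Lung against Blood, -1.74 ± 0.87, did not pass (adjusted p = 0.289), with an interval from -3.55 to 0.07. Bcl2l13, which overlaps Bid on the opposite strand, held 51.5 to 60.7 in Blood, 11.8 to 15.98 in Intestine and 22.5, 322 and 25.1 in Skin. Strand use is not given in the sources used here, so reads of the pair may mix.

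Bbc3, a p53 target, was near the lower limit of these libraries, with 461 estimated counts in all and 0 counts in 5 libraries. Its highest value was 7.09 scaled counts in Spleen replicate 2, and its F test did not pass (adjusted p = 0.614, limma).

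The values of the effectors were low. Bax had 0 counts in 14 of 18 libraries and 67.7 estimated counts in all, of which 35.7 lay in Spleen replicate 1, and it was not tested. With so few counts a difference between tissues was not detectable. Gm45808, a protein-coding gene model of GENCODE, overlaps exons of Bax on the same strand and was not analysed here, so whether reads of Bax were given to another gene was not tested. Bak1 was 11.9, 15.4 and 13.5 scaled counts in BM, and ran from 0 counts (Lung replicate 1 and Skin replicate 3) to 37.0 (Skin replicate 2) elsewhere. Its F test did not pass (adjusted p = 0.634, limma). Per kilobase of exons, Bak1 at 3.58 was close to Bcl2l1 and Bcl2, and Bax at 0.252 was the lowest of the 10.

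Read by comparison, BM and Spleen gave no member past the threshold against Blood by limma. In BM, 0.105% of genes were called higher and 0.0990% lower. In Spleen these shares were 0.477% and 0.130%. At an unadjusted p under 0.05 by the same tool, 1 member was lower in BM (Mcl1), beside 3.48% of genes, and 1 higher in Spleen (Bcl2a1d), beside 5.47%. Against Blood, Lung had 2 members higher (both Bcl2a1 copies, which share reads), beside 5.27% of genes. Intestine had 2 lower (Mcl1 and Bid, beside 10.1%) and Skin 1 lower (Bid, beside 10.4%). Against the mean of the other tissues, Blood had 1 higher (Mcl1, beside 2.43% of genes) and 1 lower (Bcl2a1d, beside 2.79%). Lung had 1 higher (Bcl2a1d, beside 3.30%), Intestine 1 lower (Mcl1, beside 8.18%) and Skin 1 lower (Bid, beside 12.9%).

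The median log2 difference of the 9 members from Blood was 0.28 for BM and 0.12 for Spleen, where that of all genes tested was 0.00 and 0.03. It was 0.17 for Lung (all genes 0.03), -0.10 for Intestine (0.12) and -0.54 for Skin (-0.26). These comparisons share the Blood libraries.

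**Figure D4:**
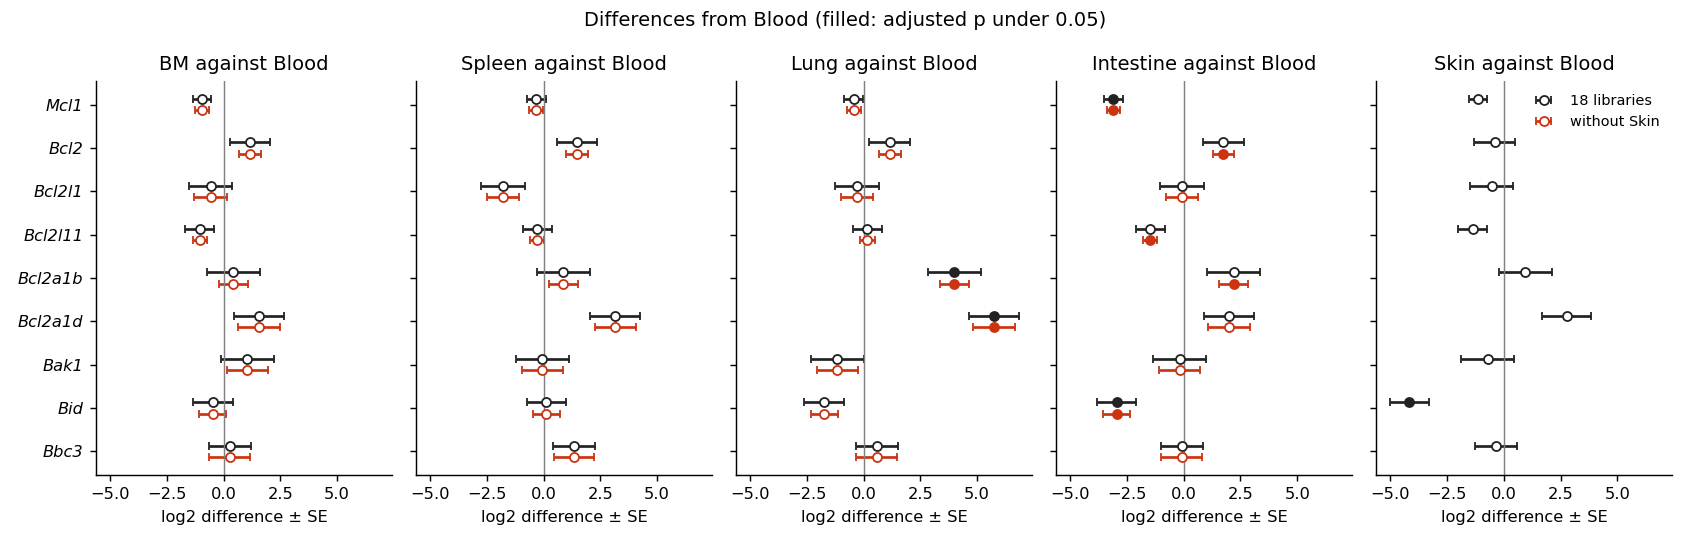
Log2 differences of the 9 tested members from Blood with standard errors, one panel per tissue, from all 18 libraries (black) and without the Skin libraries (red). Filled points passed at an adjusted p under 0.05. Mcl1 in Intestine and Bcl2a1d in Lung pass in both fits, and the errors are mostly narrower without Skin.

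Other genes of the pathway were described from lists. Among 16 further Bcl2 family genes, 12 passed the filter and 3 differed between tissues by the F test (Pmaip1, Bcl2l2 and Bnip3l). For this and the following lists, the share of all genes passing the F test was 31.9%, as given above, and counts near it say nothing of the list. Pmaip1 encodes NOXA, a BH3-only protein that binds MCL1. It held 23.8, 20.0 and 47.5 scaled counts in Intestine and 63.5 to 423 in BM, Blood, Spleen and Lung, with no overlap. Intestine against Blood was -2.01 ± 0.62 (adjusted p = 0.0203, limma). Bcl2l2, which encodes the pro-survival protein BCL-W, went the other way. It held 30.7, 39.7 and 21.4 in Intestine and 25.5, 36.8 and 19.4 in Lung, against 3.54, 1.92 and 0 counts in Blood. It was higher than in Blood by 3.67 ± 0.92 in Intestine (adjusted p = 0.00521) and 3.50 ± 0.92 in Lung (0.0228). The endothelial sum was also high in these tissues, at 415 to 2401 in their libraries and at most 152.5 in the other 4 tissues, and its part in the Bcl2l2 level was not tested. Bnip3l, a mitophagy receptor, was lower in Intestine (-1.99 ± 0.45, adjusted p = 0.00247). Bmf (0.0655), Bcl2l15 (0.148) and Bnip3 (0.156) did not pass the F test.

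Of 16 genes of the apoptosome, caspases and their inhibitors, 15 were tested and 5 passed the F test, Apaf1, Aifm1 and Birc3 among them, while Casp2 (adjusted p = 0.0901, limma) did not. Apaf1, the scaffold on which caspase-9 is activated, was 132 ± 25.6 in Blood and 32.0 ± 9.02 in Intestine, a difference of -2.03 ± 0.70 (adjusted p = 0.0375). Birc3, which encodes the inhibitor cIAP2, was lower in Intestine (-1.69 ± 0.42, adjusted p = 0.00528). In Skin 5 genes of this list were lower than in Blood, beside 10.4% of all genes, Apaf1, Casp2 and Aifm1 among them. Casp2 held 45.0, 0 counts and 3.07 in Skin and 30.3 to 60.9 in Blood, so that Skin replicate 1 lay within the Blood range. Apaf1 was at 37.2 ± 50.7 in Skin, with a difference from Blood of -2.82 ± 0.70 (adjusted p = 0.00960, limma). Its Skin libraries held 4.19, 11.9 and 95.6 scaled counts. The fit used the same spread per gene for all tissues, while Skin libraries differed more than the rest. Skin calls of genes in these lists are from that fit alone. With only the 6 libraries compared, 0.198% of all genes were called lower in Skin than in Blood, and with a weight per library 4.36%. No gene of this list passed as higher than in Blood in any tissue.

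Of 12 death receptor genes, 11 were tested and 4 passed the F test (Tnfsf10, Tnfrsf10b, Tnf and Tnfrsf1a). Tradd (adjusted p = 0.105, limma) and Casp8 (0.125) did not. Tnfsf10, which encodes the death ligand TRAIL, held 269, 143 and 46.2 scaled counts in Lung and 48.4, 29.0 and 34.0 in Intestine. In the other 4 tissues it held at most 9.13. It was higher than in Blood by 4.57 ± 0.87 in Lung (adjusted p = 0.00214) and 2.86 ± 0.87 in Intestine (0.0180). The endothelial markers summed to 2401, 1516 and 642 in Lung replicates 1 to 3, and the epithelial markers to 2479, 1443 and 343. In Intestine the endothelial sum was 415 to 1244. The part of these cells in the Tnfsf10 level was not tested. Tnf was higher in Lung by 3.90 ± 1.003 (0.0196), and the part of other cells in its level was not tested. The receptor Tnfrsf1a was lower in Intestine (-1.80 ± 0.43, adjusted p = 0.00334). In Skin, Tnfrsf10b was called higher than in Blood, beside 5.64% of all genes, and Casp8 lower, beside 10.4%. Tnfrsf10b held 76.0, 438 and 68.5 in Skin and 13.6 to 23.8 in Blood. Casp8 held 6.64, 1.08 and 35.0 in Skin and 33.5 to 70.5 in Blood, so that Skin replicate 3 lay within the Blood range. The limit given above for Skin calls applies here too.

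Growth factor signalling upstream of survival gave 15 of 18 genes by the F test, beside 31.9% of all genes. This count was 9 with median-of-ratios scaling, beside 30.8% of all genes, and 5 without the Intestine libraries, beside 17.7%. In Intestine 10 were lower than in Blood, beside 10.1% of all genes, and 1 was higher, beside 15.8%. The lower ones included the receptor genes Csf3r, Csf2ra (-3.10 ± 0.73, adjusted p = 0.00315, limma) and Csf2rb (-3.41 ± 0.59, adjusted p = 0.000234), which serve G-CSF and GM-CSF, and Pik3cd (-3.07 ± 0.83, adjusted p = 0.00871), a leukocyte PI3-kinase subunit. The median of the list in Intestine was -1.84, against 0.12 over all genes. As given above, the neutrophil markers as a whole were lower there.

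The gene of this list that was higher in Intestine was Cdkn1a, which encodes the cell cycle inhibitor p21. Cdkn1a held 47.2, 70.1 and 83.9 scaled counts in Lung and 20.2, 12.1 and 26.0 in Intestine. Skin libraries held 259, 165 and 139.8. It held at most 4.95 in BM, Blood and Spleen, with no overlap. Against Blood it was higher by 4.86 ± 0.80 in Lung (adjusted p = 0.000719, limma), 3.09 ± 0.80 in Intestine (0.00673) and 6.32 ± 0.80 in Skin (3.21e-05). The epithelial and keratinocyte sum was also high there, at 343 to 2479 in Lung, 169 to 265 in Intestine and 872 to 10290 in Skin. It was at most 54.4 in BM, Blood and Spleen. The part of other cells in the Cdkn1a level was not tested. Pim1, a survival kinase gene induced by cytokines, was 419, 660.4 and 846 in Lung, 195, 1652 and 658 in Skin and 173 to 250.05 in Blood. Lung lay within the wide range of Skin and above Blood. Pim1 passed the F test (0.000678) and was higher than in the mean of the other tissues in Lung, by 1.92 ± 0.46 (0.0178), and in Skin, by 1.86 ± 0.46 (0.00736). Lung against Blood did not pass (1.62 ± 0.59, adjusted p = 0.117). For Pim1, too, the part of other cells was not tested.

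Of 9 genes for the turnover of MCL1 or the control of Bcl2l11, 7 were matched and tested. By the F test 3 passed: Huwe1, which encodes the MULE ubiquitin ligase, Gsk3b, a kinase that marks MCL1 for degradation, and Ier3. Dynll1, Btrc and Usp9x did not. Huwe1 was higher in Skin than in Blood by 2.08 ± 0.45 (adjusted p = 0.00380, limma) and Gsk3b was lower (-1.60 ± 0.44, adjusted p = 0.0175). The limit given above for Skin calls applies to both. With only the 6 libraries compared, 0.739% of all genes were called higher in Skin than in Blood, in place of 5.64%. No gene of this list passed in Intestine against Blood, where Mcl1 itself was low.

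**Figure D5:**
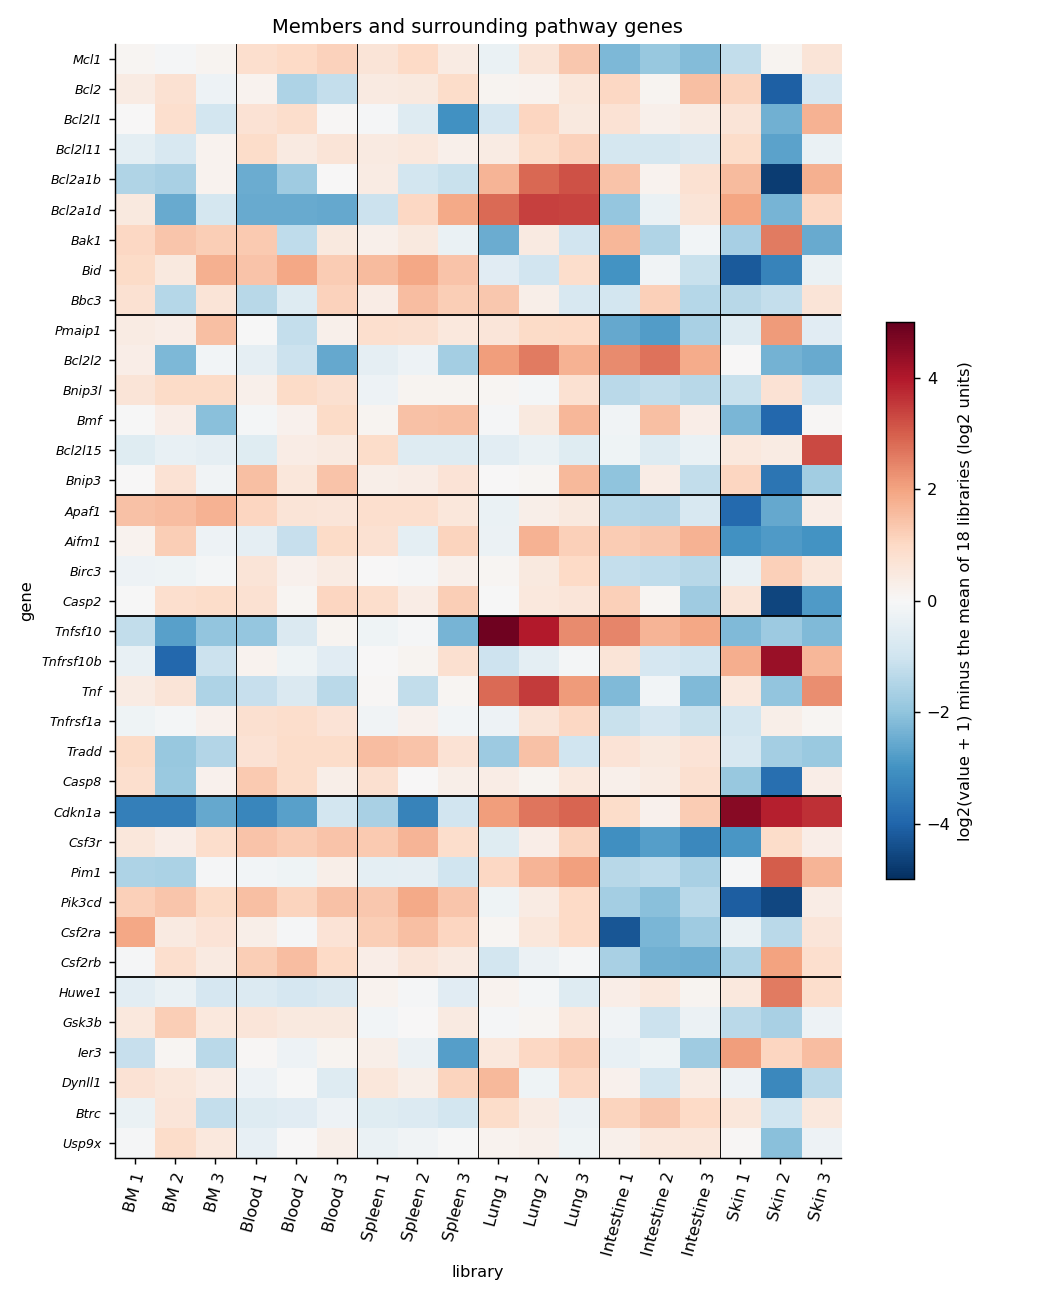
Log2(value + 1) of the 9 tested members and up to 6 genes of each pathway list in each library, minus the gene's mean over the 18 libraries. Blue is below and red above the mean, and lines part the lists and tissues. Cdkn1a and Tnfsf10 are red in Lung with both Bcl2a1 copies, and Mcl1, Pmaip1, Csf3r and Pim1 are blue in Intestine.

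The genes most like each member that passed the F test were found by Pearson's r of log2(value + 1) over the 18 libraries, among about 6165 protein-coding genes with a mean of at least 20. For Mcl1 these were Gcnt2 (r = 0.971), Rnf149 (0.967) and Gpcpd1 (0.960). For Bid they were Zfp831 (0.945), Gid8 (0.944) and Ing4 (0.944). For Bcl2a1d they were Gpr132 (0.805), Skil (0.767) and Plekha1 (0.751), lower than for Mcl1 and Bid. The libraries share tissue, depth and scaling, so these values describe likeness only.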

How the data were processed

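Per the labels' protocols, cDNA was made and amplified from RNA of the sorted neutrophils (Ovation Single Cell system) and sequenced from one end for 61 nt. CASAVA, RSEM 1.3.1, limma and mm10 are named in the submitters' processing notes. Their order and the annotation are not given in the sources used here. The deposited signal values carry no gene length: from the values, each is an estimated count plus 0.5, over an effective library plus 1, times 1000000. The recovered counts were not all whole, and no count test was run. GENCODE vM21 named 31899 of 32328 identifiers. The members and lists were chosen with earlier results of these data known.

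The 16157 genes that reached a value of 1 in 3 or more libraries were tested with limma 3.58.1 (R 4.3.3) on log2(value + 1), which understates changes of low genes. The model had 6 group means, moderated tests with a trended prior and Benjamini-Hochberg adjustment at 0.05 over all genes. Every tissue was set against Blood, and against the mean of the 5 remaining tissues. Sums of Bcl2a1 copies were added as rows. Every adjusted p is from these fits. Named were all members and Bcl2a1 copies, up to 6 genes of each list with the smallest F test p, summed markers, and 3 alike genes per member that passed. Genes named for a single contrast outside this rule (Casp2 and Casp8 in Skin, for example) were chosen after their values were seen. Some genes set by this rule are not reported here. Alternatives were another pseudocount, no filter, 2 other scalings, library weights, a replicate block, leaving out Skin or each library, other reference groups and, chosen after seeing the data, leaving out Intestine. Marker sums and their lists are a description only. The fit was tested on simulated data with the same spread in all libraries and changes in Lung only. That test does not cover the wider spread of the Skin libraries. Python 3.11.15, pandas 2.3.3, numpy 2.4.6 and matplotlib 3.10.9 were used for tables and figures.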

Additional observations from a re-analysis of the deposited data

How the results depend on the processing

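No contrast called in the main fit for a member or a sum of Bcl2a1 copies changed direction. F tests have no direction, and contrasts not called in the main fit were not checked for it. The values counted next are adjusted p of F tests and of called contrasts. For single members 442 values stayed on the same side of the threshold, 44 lost a call and 13 gained one, and for the sums these were 199, 31 and 9. The count of members differing between tissues (3) was 6 with a weight per library, beside 51.4% of all genes, and 6 without Skin, beside 40.6%. Other counts of members are given with the main count in brackets, followed by the share of all genes called in that setting. With a weight per library they were 1 lower in BM (0, 1.53%), 2 higher in Spleen (0, 7.28%), 1 lower in Lung (0, 10.4%) and 3 higher in Intestine (0, 27.0%) against Blood. Against the others they were 3 higher (1, 12.8%) and 3 lower (1, 15.5%) in Blood, 2 higher in Spleen (0, 9.88%), 3 higher in Lung (1, 8.81%), 1 higher (0, 21.5%) and 3 lower (1, 14.1%) in Intestine and 0 lower in Skin (1, 0.891%). With only the 6 libraries compared they were 1 lower in BM (0, 1.67%), 1 higher in Spleen (0, 5.63%), 1 lower in Lung (0, 6.43%), 2 higher in Intestine (0, 26.5%) and 0 lower in Skin (1, 0.198%) against Blood. Without Skin they were 2 higher in Intestine against Blood (0, 22.5%), and 3 lower in Blood (1, 9.67%), 3 higher in Lung (1, 6.46%) and 3 lower in Intestine (1, 17.5%) against the others. Quantile normalization gave 2 lower in Skin against Blood (1, 10.5%), and 1 higher in Spleen (0, 1.61%), 2 higher in Lung (1, 3.28%) and 3 lower in Intestine (1, 13.5%) against the others. In Lung against Blood, 1 was higher (2) with the pseudocount of 0.5 (5.43%), with no filter (2.95%) and without Intestine (5.23%). With BM as the reference, 1 was higher in Lung (2, 5.21%). No filter gave 0 higher and 0 lower in Blood against the others (1 each, 1.28% and 1.34%), median-of-ratios scaling 0 higher (1, 1.45%). Without Intestine these were 0 and 0 (0.401% and 0.579%), and 2 were higher in Lung against the others (1, 5.35%). The cause of these changes was not tested.

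Of the pathway lists, the other Bcl2 family (3) gave 5 with quantile normalization, 6 with weights, 5 without Skin and 1 without Intestine. The apoptosome list (5) gave 8 with weights, the death receptor list (4) 2 without Intestine, and the growth factor list (15) 9 with median-of-ratios scaling and 5 without Intestine. The share of all genes passing the F test was 37.1% with quantile normalization, 51.4% with weights and 40.6% without Skin. It was 30.8% with median-of-ratios scaling and 17.7% without Intestine.

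Leaving out each library in turn gave 3 to 6 members differing, beside 26.9% to 40.4% of all genes. Against Blood it gave 1 to 2 higher in Lung, 0 to 2 higher and 1 to 3 lower in Intestine, and 0 to 2 higher and 1 to 2 lower in Skin. Against the others it gave 0 to 1 lower in BM, 0 to 2 higher and 0 to 2 lower in Blood, 0 to 1 higher in Spleen, 0 to 2 higher in Lung, 1 to 3 lower in Intestine and 1 to 3 lower in Skin. Shares of all genes in these contrasts are not given for single left-out libraries, so the ranges say nothing of the family. The other Bcl2 family gave 3 to 5 and the apoptosome list 4 to 8.

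No pairing by replicate number was seen: deviations of libraries with the same number correlated at -0.060 to 0.106, 1 of 45 pairs was over 0.1, and 7 of 18 libraries were closest to their own number. Low correlations cannot show whether libraries shared an animal or a batch. In the column labels Blood replicate 3 has the letter D, where replicate 3 of the other tissues has C. With the replicate number as a block, 5084 genes in place of 5159 differed between tissues. There 2 members were lower in Skin against Blood (1, 10.3% of all genes) and 2 were higher in Lung against the others (1, 3.11%). The 3 libraries per tissue and the few counts of Bax, Bbc3 and Bcl2a1d limit what could be seen.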
